A study of Drosophila melanogaster with 12 samples.

Results

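The larval storage protein and feeding genes Lsp1alpha, Lsp1beta, Lsp1gamma, Lsp2, Fbp1, Fbp2, fat-spondin and fit, which are known from the fat body of Drosophila, were examined in ovaries of 4 su(Hw) genotypes. They were chosen by gene symbol in the probe annotation. Of the 8 genes, 5 were matched to a probe set (Lsp2, Fbp1, Fbp2, fat-spondin and fit), each to exactly 1 of the 18952 probe sets of the array. Lsp1alpha, Lsp1beta and Lsp1gamma were matched to none, by symbol or by gene number, and were not analysed here.

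The arrays, 3 for each genotype and 12 in all, measured ovaries of virgin females aged 4 to 6 h, each array from about 150 ovary pairs pooled together. Wild type was Canton S. The fertile genotype carried the alleles su(Hw)f and su(Hw)v (f/v), and the sterile genotypes carried su(Hw)2 with su(Hw)v (2/v) or su(Hw)Pb with su(Hw)2 (Pb/2). The strain background of the mutant alleles is not given in the sources used here, so strain and su(Hw) genotype cannot be told apart against wild type. The design of the series is stated to limit egg chambers of this age to stage 8, before the stage at which sterile egg chambers die. Whether the genotypes matched in egg chamber stage was not tested. Nothing in the labels says that the pools of a genotype were collected separately, so p-values measure a spread between pools that may be technical.

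Larval serum proteins such as Lsp2 are hexamerins, which the larval fat body secretes into the blood and takes back before metamorphosis as a store of amino acids. Fbp1 encodes a fat body protein induced by ecdysone and linked to the uptake of these hexamerins, and Fbp2 encodes a fat body protein related to alcohol dehydrogenase. The gene fat-spondin encodes a secreted protein with thrombospondin repeats, and fit encodes a female-biased secreted protein of fat cells that rises after a protein meal and lowers protein appetite. Fat body tissue lies beside the ovary in the abdomen.

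Lsp2, Fbp1, Fbp2 and fat-spondin were highest in wild type, lower in fertile f/v ovaries and lowest in both sterile genotypes. The gene fit ran the other way, from below background in wild type to its highest level in the sterile ovaries. Relative to wild type, mean normalized signal in f/v was 66.0% for Lsp2, 59.9% for Fbp1, 52.1% for Fbp2 and 50.1% for fat-spondin. In 2/v it was 46.1, 29.9, 40.2 and 29.8% for the same genes, and in Pb/2 46.4, 32.3, 40.7 and 22.4%. Fewer cells of a type and less RNA per cell cannot be told apart in such pooled tissue.

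Signals of single arrays are given as deposited by the authors, in intensity units. Lsp2 read 2709, 2538 and 2680 in wild type and 1629, 1635 and 1653 in f/v. It read 1040, 1088 and 1187 in 2/v and 1357, 1012 and 1117 in Pb/2. All f/v arrays lay between wild type and the sterile arrays, with no overlap, while the arrays of 2/v and Pb/2 overlapped.

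Fbp1 read 1700, 1621 and 1569 in wild type and 926, 900 and 841 in f/v. It read 439, 414 and 417 in 2/v and 465, 545 and 449 in Pb/2. The order of the groups was that of Lsp2, and in deposited signal every Pb/2 array was above every 2/v array, an order that ended after normalization.

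Fbp2 read 2455, 2517 and 2168 in wild type and 1121, 1211 and 1141 in f/v. It read 828, 814 and 933 in 2/v and 938, 856 and 960 in Pb/2. Its wide gap lay between wild type and all mutants, and the gap between f/v and the sterile arrays was narrow but without overlap.

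For fat-spondin the wild type arrays read 985, 969.5 and 891 and the f/v arrays 339, 458.5 and 433. The 2/v arrays read 229, 211.4 and 262 and the Pb/2 arrays 210.7, 204 and 145. The sterile groups did not overlap for this gene, with Pb/2 below 2/v by a narrow gap. Their difference did not pass the test given below, and after normalization 38.8% of genes had no overlap between these groups.

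Arrays of fit read 25.8, 14.2 and 34.8 in wild type and 66.8, 122 and 135 in f/v. They read 212, 172 and 178 in 2/v and 198, 202 and 205 in Pb/2. Background was set at 61.97, below which 95% of the signals of 27 probe sets for bacterial controls lay, so all 3 wild type arrays lay below it and the lowest f/v array lay just above it. No array of any other of these genes lay below background.

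After quantile normalization the mean signal of Lsp2 was 2526 ± 87.6 (SD, n = 3) for wild type, 1667 ± 5.3 for f/v, 1164 ± 51.8 for 2/v and 1173 ± 153 for Pb/2. Fbp1 had normalized means of 1528 ± 52.0, 916 ± 52.1, 457 ± 33.5 and 494 ± 43.3 in the same order of genotypes, and Fbp2 of 2266 ± 176, 1181 ± 51.9, 910.0 ± 55.3 and 922 ± 88.2. In both genes the step down to f/v was many times the SD, and the sterile means lay within an SD or so of each other. For fat-spondin the normalized means were 858 ± 38.6, 430.5 ± 73.8, 256 ± 27.6 and 192 ± 25.7. For fit they were 22.7 ± 9.4, 112 ± 43.6, 205 ± 26.2 and 209 ± 15.7, with the widest relative spread in wild type and f/v.

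**Figure D1:**
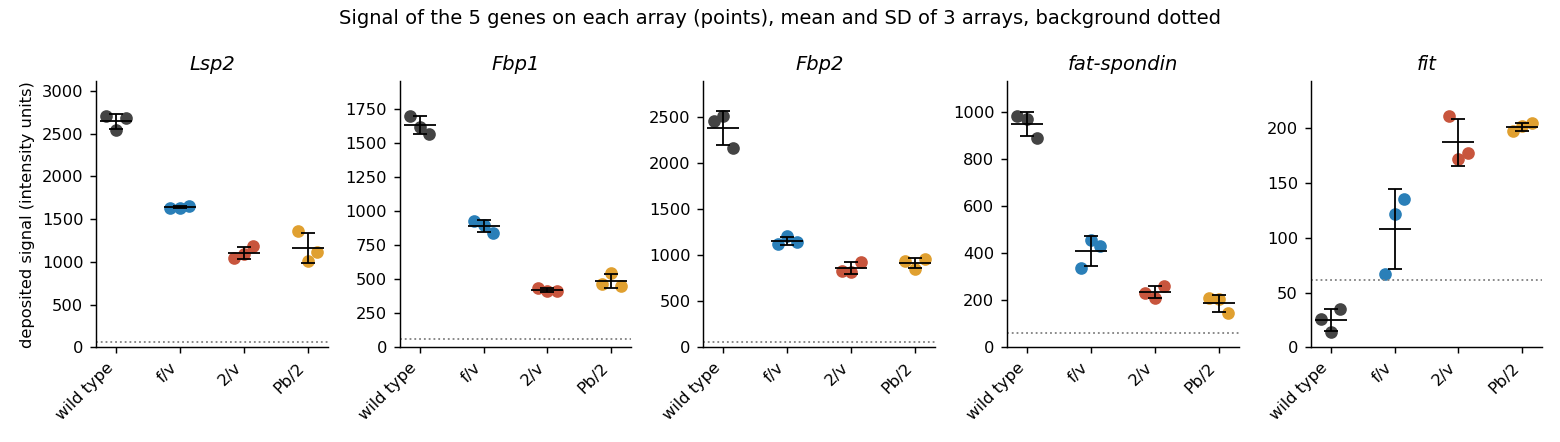
Deposited signal (vertical axis, intensity units, from 0) of Lsp2, Fbp1, Fbp2, fat-spondin and fit on each of 12 arrays (points) in wild type, f/v, 2/v and Pb/2, with the mean and SD of 3 arrays as black bars and background (61.97) as a dotted line. Lsp2, Fbp1, Fbp2 and fat-spondin step down from wild type through f/v to the sterile genotypes, and fit steps up from below background.

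In the fertile f/v ovaries against wild type, Lsp2, Fbp1, Fbp2 and fat-spondin fell and fit rose. Changes are log2 fold changes ± SE from limma's fit of all 12 arrays on log2(signal + 16) after quantile normalization, a scale that understates changes at low signal, and a gene was called at a Benjamini-Hochberg adjusted p below 0.05. Lsp2 changed by -0.59 ± 0.09 (adjusted p = 5.16e-04), Fbp1 by -0.73 ± 0.08 (adjusted p = 7.89e-05) and Fbp2 by -0.93 ± 0.09 (adjusted p = 2.46e-05). The change of fat-spondin was -0.98 ± 0.14 (adjusted p = 3.04e-04). The rise of fit was 1.68 ± 0.26 (adjusted p = 6.49e-04), and because wild type lay below background, f/v was at least 1.56-fold higher. Because fit passed the expression filter on no wild type array, its difference from wild type in each mutant was partly fixed by the filter. Calls were common in this comparison, with 35.3% of 9109 genes called (16.9% lower and 18.3% higher) and 49.8% of genes with no overlap between the groups of arrays. The median change of all genes was 0.02, against -0.73 for the 5 genes.

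In the sterile 2/v ovaries Lsp2, Fbp1, Fbp2 and fat-spondin were also lower than in wild type, with Fbp1 and fat-spondin at the widest distance. Fbp1 changed by -1.71 ± 0.08 (adjusted p = 1.29e-07) and fat-spondin by -1.69 ± 0.14 (adjusted p = 5.55e-06). Fbp2 changed by -1.30 ± 0.09 (adjusted p = 1.77e-06) and Lsp2 by -1.11 ± 0.09 (adjusted p = 5.55e-06). The rise of fit was 2.54 ± 0.26 (adjusted p = 3.13e-05), at least 2.82-fold. Of all genes 46.5% were called here, 22.4% lower and 24.2% higher, and the groups did not overlap for 57.0%. Of the called genes, 146 fell more than Fbp1, 156 more than fat-spondin and 407 more than Lsp2.

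In the sterile Pb/2 ovaries fat-spondin fell most of the 4 genes, with a change of -2.08 ± 0.14 against wild type (adjusted p = 1.21e-06), and 117 called genes fell more. Fbp1 changed by -1.60 ± 0.08 (adjusted p = 2.03e-07), Fbp2 by -1.28 ± 0.09 (adjusted p = 1.94e-06) and Lsp2 by -1.10 ± 0.09 (adjusted p = 5.57e-06). The rise of fit was 2.57 ± 0.26 (adjusted p = 3.12e-05), at least 2.89-fold. Of all genes 31.5% were called, 15.6% lower and 15.9% higher, and the groups did not overlap for 45.5%. These 3 comparisons share the wild type arrays. The size of the rise of fit depended on the pseudocount, with 0.99 to 2.25 for f/v, 1.64 to 3.21 for 2/v and 1.66 to 3.24 for Pb/2 at pseudocounts of 64 and 1, all called.

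**Figure D2:**
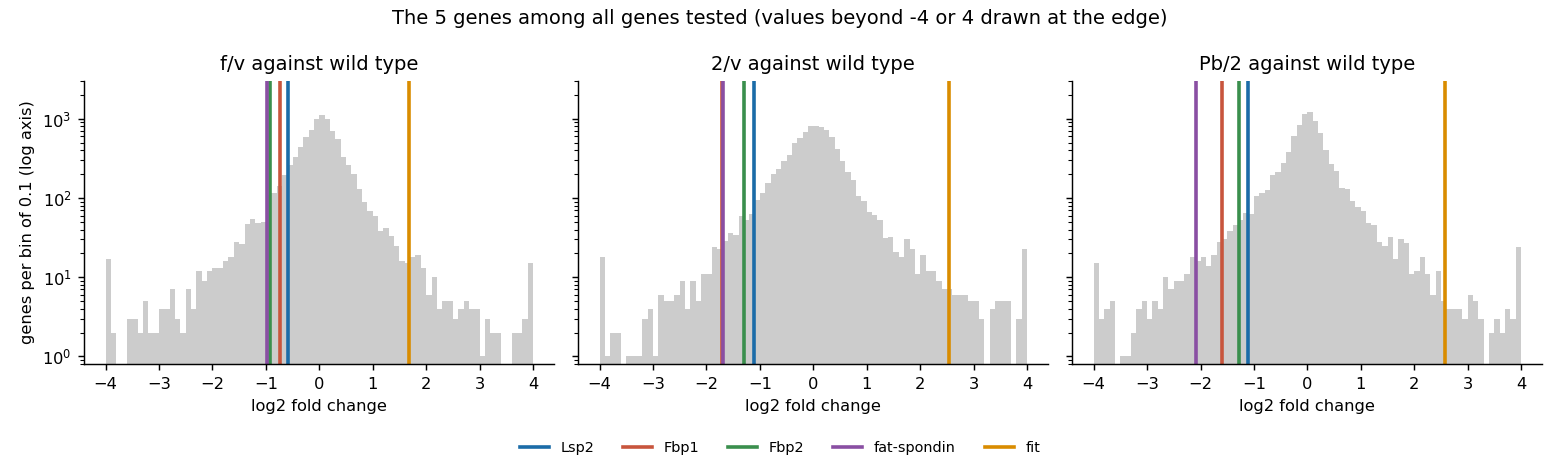
Histograms of the log2 fold changes of 9109 genes (grey, log axis, bins of 0.1) against wild type for each mutant genotype, with the 5 genes as coloured lines. Lsp2, Fbp1, Fbp2 and fat-spondin lie in the lower flank of each histogram and fit in the upper tail.

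The sterile ovaries were then set against the fertile f/v ovaries. They differ from f/v in alleles and in su(Hw) signal as well as in fertility, which cannot be told apart here. In 2/v against f/v, Fbp1 changed most, by -0.98 ± 0.08 (adjusted p = 1.53e-05), followed by fat-spondin (-0.71 ± 0.14, adjusted p = 0.00345) and Lsp2 (-0.51 ± 0.09, adjusted p = 0.00188). Fbp2 (-0.37 ± 0.09, adjusted p = 0.0113) and fit (0.86 ± 0.26, adjusted p = 0.0337) also passed the test. In this comparison 27.4% of genes were called, 13.6% lower and 13.8% higher, and the groups did not overlap for 43.9%.

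In Pb/2 against f/v, fat-spondin changed by -1.10 ± 0.14 (adjusted p = 2.76e-04), Fbp1 by -0.87 ± 0.08 (adjusted p = 4.23e-05) and Lsp2 by -0.51 ± 0.09 (adjusted p = 0.00251). Fbp2 changed by -0.36 ± 0.09 (adjusted p = 0.018) and fit by 0.89 ± 0.26 (adjusted p = 0.0364). Of all genes 20.5% were called, 10.5% lower and 10.0% higher, with no overlap for 38.0%. The calls of fit were the least stable. Without f/v replicate 1, its lowest mutant array, 2/v was higher than f/v by 0.53 (adjusted p = 0.0778, from 0.0123 to 0.0987 over the alternatives). Pb/2 was then higher by 0.56 (adjusted p = 0.0722, from 0.0129 to 0.0963 over the alternatives). Leaving out any single array of 2/v, or any single array of Pb/2, also ended the call of fit in the comparison that array belongs to. Fbp2 lost its call when array medians were subtracted, with -0.33 for 2/v (adjusted p = 0.0817, from 0.00427 to 0.0817 over the alternatives) and -0.29 for Pb/2 (adjusted p = 0.154, from 0.00695 to 0.154). Its call in Pb/2 was also lost without f/v replicate 2 (-0.32, adjusted p = 0.0656), Pb/2 replicate 1 (-0.34, adjusted p = 0.0579) or Pb/2 replicate 2 (-0.30, adjusted p = 0.0646).

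The steps from wild type to f/v and from f/v to each sterile genotype can be set side by side. Fbp2 changed by -0.93 in the first step and then by -0.37 to 2/v and -0.36 to Pb/2. Fbp1 changed by -0.73 and then by -0.98 and -0.87, and Lsp2 by -0.59 and then by -0.51 to either sterile genotype. For fat-spondin the first step was -0.98 and the second -0.71 to 2/v and -1.10 to Pb/2. Whether the steps differ within a gene was not tested. Of 9109 genes, 156 (1.71%) had every wild type array above every f/v array and every f/v array above every sterile array, and Lsp2, Fbp1, Fbp2 and fat-spondin were among them. The reverse order was held by 150 genes (1.65%), fit among them. These 4 genes were also among the 68 (0.747%) called lower in each comparison other than Pb/2 against 2/v, and fit was among the 88 (0.966%) called higher in each. The place of fit in these counts was partly fixed by the filter, which it passed on no wild type array. Its call against f/v was kept in only 16 of 26 alternatives for 2/v and 15 of 26 for Pb/2.

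The sterile genotypes did not differ past the threshold for any of the 5 genes in Pb/2 against 2/v, where 20.4% of all genes were called (9.28% higher and 11.1% lower). Lsp2 differed by 0.004 (95% interval -0.19 to 0.20) and Fbp2 by 0.02 (-0.18 to 0.21). Fbp1 differed by 0.11 (-0.08 to 0.29) and fit by 0.03, with a wide interval of -0.55 to 0.61. Pb/2 was lower for fat-spondin by -0.39 (-0.69 to -0.09, adjusted p = 0.0681), with no overlap of the arrays, as for 38.8% of genes. It passed the test with the filter at the 60th percentile (adjusted p = 0.0371) and without f/v replicate 1 (adjusted p = 0.0394), and its adjusted p ranged from 0.0371 to 0.25 over the alternatives.

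**Figure D3:**
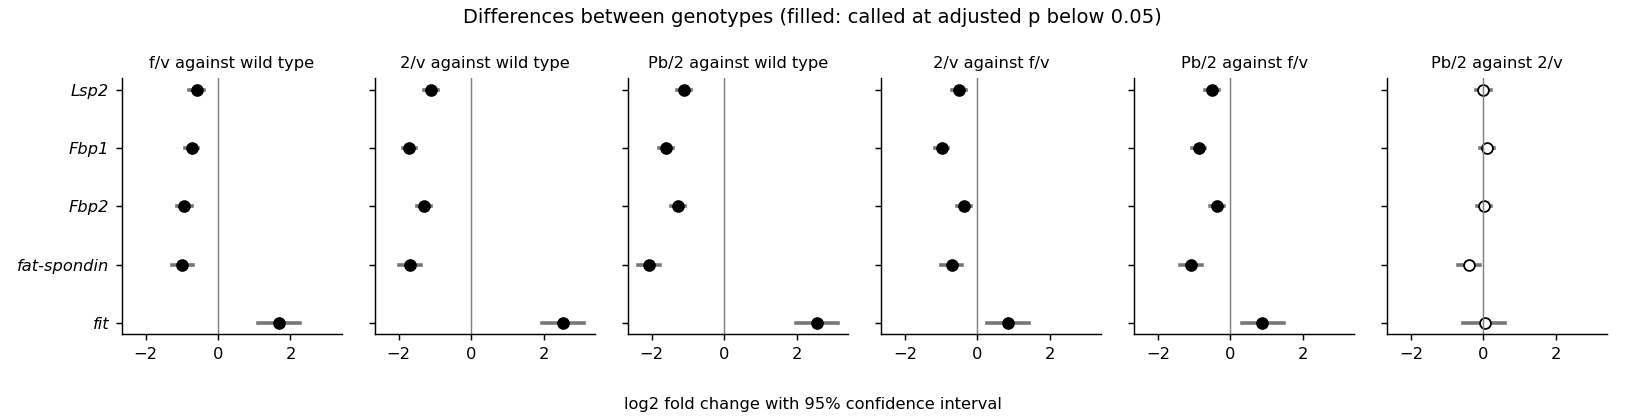
Log2 fold change (horizontal axis) with its 95% confidence interval for Lsp2, Fbp1, Fbp2, fat-spondin and fit in the 6 comparisons of genotypes, filled where the gene was called. The 5 genes are called in the first 5 comparisons, and in Pb/2 against 2/v none is.

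The scale of the arrays bears on the size of these changes. The 18 added bacterial control probe sets (BioB, BioC, BioDn and CreX), for transcripts added in fixed amounts, read 1.22 (f/v), 1.38 (2/v) and 1.45 (Pb/2) times their wild type signal. Scaled to these controls and in the same order of genotypes, the median change of all genes against wild type was -0.31, -0.52 and -0.57. Lsp2 then read -0.97, -1.71 and -1.71 and Fbp1 -1.15, -2.37 and -2.24. Fbp2 read -1.31, -1.92 and -1.88, fat-spondin -1.47, -2.40 and -2.77, and fit 1.41, 2.01 and 2.05, and the 5 genes stayed called against wild type. At that scale 41.1% (f/v), 64% (2/v) and 75.9% (Pb/2) of all genes were called, most of them lower (6528 lower and 386 higher for Pb/2). Every array began from 50 ng of RNA, so this scale does not measure the RNA content of the ovaries. Taken relative to the median of all genes at that scale, Lsp2 read -0.66, -1.19 and -1.14 and fit 1.72, 2.53 and 2.62. At that scale fit was no longer called against f/v, with 0.59 for 2/v (adjusted p = 0.0809) and 0.64 for Pb/2 (adjusted p = 0.0608).

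Other genes known from the fat body gave counts that depended on the scale of the arrays. In f/v against wild type 3 of 18 tested fat body genes rose and 3 fell (median -0.03), with 4 and 6 in 2/v (median -0.13) and 3 and 4 in Pb/2 (median -0.11). Among all genes 35.3, 46.5 and 31.5% were called in these comparisons. With array medians subtracted the list median turned positive (0.11, 0.12 and 0.10), below the median of all genes at that scale (0.155, 0.208 and 0.173). There 6 genes of the list were higher and 2 lower in f/v, 8 and 4 in 2/v, and 5 and 2 in Pb/2. The share of all genes called was then 38.5, 52.1 and 39.5%. Scaled to the added controls, 3 were higher and 8 lower in f/v, 3 and 11 in 2/v, and 1 and 13 in Pb/2 (medians -0.36, -0.57 and -0.66). The median of all genes was then -0.31, -0.52 and -0.57, with 41.1, 64 and 75.9% called. Against f/v the list leaned lower, with 2 higher and 7 lower in 2/v (median -0.23) and 1 and 4 in Pb/2 (median -0.27). Among all genes 13.8% were higher and 13.6% lower in 2/v, and 10.0 and 10.5% in Pb/2. With array medians subtracted, 2 were higher and 3 lower in 2/v (median -0.08, all genes 0.065) and 1 and 3 in Pb/2 (median -0.22, all genes 0.021). The share of all genes called was there 22.4 and 15.4%. Scaled to the added controls, 1 was higher and 7 lower in 2/v (median -0.35, all genes -0.20), and 1 and 8 in Pb/2 (median -0.49, all genes -0.25). At that scale 25.9 and 25.8% of all genes were called. Mtk, which encodes the antimicrobial peptide metchnikowin, rose in all mutants, by 1.85 ± 0.28 (f/v), 1.78 ± 0.28 (2/v) and 1.22 ± 0.28 (Pb/2). The antifungal peptide gene Drs fell in all mutants, with changes of -0.76 ± 0.10 (f/v), -0.86 ± 0.10 (2/v) and -1.82 ± 0.10 (Pb/2). Pepck1, an enzyme of gluconeogenesis, rose by 1.93 ± 0.13 in 2/v and 1.32 ± 0.13 in Pb/2, and the perilipin gene Lsd-1 rose by 0.99 ± 0.08 in f/v and 1.14 ± 0.08 in 2/v. In the genotypes not named, Pepck1 read 0.20 (f/v, adjusted p = 0.283) and Lsd-1 0.16 (Pb/2, adjusted p = 0.163). Apoltp, a lipid transfer lipoprotein, fell in 2/v (-1.57 ± 0.42), where 2 of 3 arrays were below background.

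The summed normalized signal of the 18 fat body genes lay between 73463 and 74299 in wild type and between 75203 and 77369 in f/v. It lay between 67169 and 68535 in 2/v and between 69392 and 71439 in Pb/2. None of the 18 was below background on all 12 arrays, and the lipid genes Lsd-2, Jabba and Desat1, which the ovary itself is known to use, had the highest signals.

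Genes of sex-biased fat cell expression other than fit gave mixed results. Of 6 tested, 1 rose and 4 fell in f/v (median -0.33), 1 rose and 2 fell in 2/v (median -0.23), and 2 rose and 2 fell in Pb/2 (median -0.04). The share of all genes called was 35.3, 46.5 and 31.5%. The odorant binding protein genes Obp99a and Obp99b fell in f/v (-1.24 ± 0.10 and -0.73 ± 0.12) and in 2/v (-0.48 ± 0.10 and -0.58 ± 0.12). In Pb/2 Obp99b fell as well (-0.85 ± 0.12), and Obp99a read -0.03 (adjusted p = 0.84). The yolk protein gene Yp1, also made by follicle cells, rose in all mutants, by 0.31 ± 0.09 (f/v), 0.31 ± 0.09 (2/v) and 0.39 ± 0.09 (Pb/2). Yp2 fell in f/v (-0.34 ± 0.06) and rose in Pb/2 (0.18 ± 0.06), and Yp3 fell in f/v (-0.29 ± 0.06) and Pb/2 (-0.22 ± 0.06). In 2/v neither Yp2 (0.13) nor Yp3 (-0.08) was called. Cyp4d21 was below background on all 12 arrays.

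Among regulators of fat body genes, Aef1, a zinc finger repressor of Adh and yolk protein enhancers, fell in f/v (-0.80 ± 0.24) and 2/v (-1.09 ± 0.24), and the ecdysone target br fell in all mutants (-0.77 ± 0.13 for f/v, -0.74 ± 0.13 for 2/v and -0.47 ± 0.13 for Pb/2). The ecdysone receptor gene EcR rose in f/v (0.70 ± 0.12) and Pb/2 (0.67 ± 0.12), and Hnf4 rose in 2/v (0.57 ± 0.09) and Pb/2 (0.67 ± 0.09). In all, 3 of 11 tested regulators rose and 2 fell in f/v, 2 and 4 in 2/v, and 2 and 1 in Pb/2, with medians of 0.10, 0.01 and 0.15. For all genes the share called was 35.3, 46.5 and 31.5%. A further list held the prophenoloxidase genes PPO1, PPO2 and PPO3 and the dehydrogenase genes Pdh and Fdh. Of these 5 tested genes none was called in f/v or 2/v, and Fdh alone fell in Pb/2 (-0.18 ± 0.06).

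Appetite and satiety signals, the system in which fit acts, were mostly dim in these samples. Of 36 genes listed, 27 had a probe set, 18 passed the filter, and 5 lay below background on all 12 arrays, Ilp2, the insulin-like peptide gene whose release fit is known to promote, among them. In f/v 2 rose and 4 fell (median -0.19), in 2/v 5 rose and 5 fell (median -0.02), and in Pb/2 5 rose and 3 fell (median 0.09). Calls over all genes stood at 35.3, 46.5 and 31.5% in these comparisons. Gbp1 and Gbp2 encode growth-blocking peptides that the fat body releases after feeding. Gbp1 fell in all mutants, with changes of -0.80 ± 0.13 (f/v), -1.52 ± 0.13 (2/v) and -1.59 ± 0.13 (Pb/2), and Gbp2 by -0.82 ± 0.11 (f/v), -0.96 ± 0.11 (2/v) and -1.25 ± 0.11 (Pb/2). The activin-like ligand gene daw rose by 3.13 ± 0.18 in 2/v and 2.11 ± 0.18 in Pb/2, from a wild type level below background on 2 of 3 arrays. Dh44-R2, a receptor for a diuretic hormone that acts in nutrient sensing, rose by 2.00 ± 0.15 in Pb/2 and fell in 2/v (-0.71 ± 0.15), where 2 of 3 arrays were below background.

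The summed signals of gut, muscle and hemocyte markers fell beside Lsp2, Fbp1, Fbp2 and fat-spondin in the comparisons with wild type. The summed signal of 16 gut markers was 18219 to 19743 in wild type and far lower in the mutants (3746 to 3918 for f/v, 2946 to 3312 for 2/v, 3270 to 3909 for Pb/2), where 14, 14 and 15 of the 16 fell. The 14 muscle markers summed to 106948 to 111705 in wild type (58543 to 61710 for f/v, 52220 to 57370 for 2/v, 59861 to 60495 for Pb/2), and 13 of 14 fell in each mutant. The 14 hemocyte markers summed to 23319 to 24722 in wild type (14439 to 16288 for f/v, 11535 to 11914 for 2/v, 12772 to 13140 for Pb/2). Of the 13 hemocyte markers tested, 4, 8 and 6 fell and 1, 2 and 1 rose. Of 9 nervous tissue markers tested, 2 fell in each mutant and 1, 1 and 2 rose (medians -0.02, -0.30 and 0.32). Beside these lists, 16.9, 22.4 and 15.6% of all genes were called lower and 18.3, 24.2 and 15.9% higher. The part of other tissue in the falls of the storage protein genes was not tested. Only gcm among the gut, muscle and hemocyte markers lay below background on all 12 arrays.

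Between the sterile genotypes and f/v the gut and muscle markers moved less evenly. In 2/v against f/v 4 of 14 muscle markers fell and 1 rose (median -0.08), and 1 of 16 gut markers fell and 2 rose (median 0.04). In Pb/2 against f/v 1 muscle marker fell and none rose (median 0.01), and 4 gut markers fell and 5 rose (median -0.09). The hemocyte markers fell at 6 of 13 in each of these comparisons (medians -0.21 and -0.35), with none higher in 2/v and 1 in Pb/2. Among all genes 13.6% were called lower and 13.8% higher in 2/v against f/v, and 10.5% lower and 10.0% higher in Pb/2 against f/v. Lsp2, Fbp1, Fbp2 and fat-spondin fell in both comparisons, by -0.36 to -1.10.

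Markers of the labelled tissue, the ovary, were present. The 14 germline markers with a probe set summed to between 94968 and 110739 over all arrays and the 12 follicle cell markers to between 92039 and 100432, and none of them lay below background throughout. Of the germline markers 0, 7 and 3 fell and 2, 3 and 2 rose in the 3 mutants, and of the follicle cell markers 6, 6 and 7 fell and 3 rose in each. Calls over all genes stood at 35.3, 46.5 and 31.5% in the same comparisons. The eggshell genes Cp36 and Cp38, on the follicle cell list, changed by -1.33 ± 0.07 and -1.90 ± 0.25 in 2/v against wild type. In Pb/2 they changed by -3.09 ± 0.07 and -3.83 ± 0.25. Their mean deposited signals were 8220 and 3330 in wild type and 10415 and 3612 in f/v. In 2/v these were 3330 and 801, and in Pb/2 984 and 215. The part of egg chamber stage in these differences was not tested. The su(Hw) transcript read 3672 to 4077 in wild type, and 2584 to 2864 (f/v), 70.8 to 121 (2/v) and 83.7 to 191 (Pb/2) in the mutants.

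**Figure D4:**
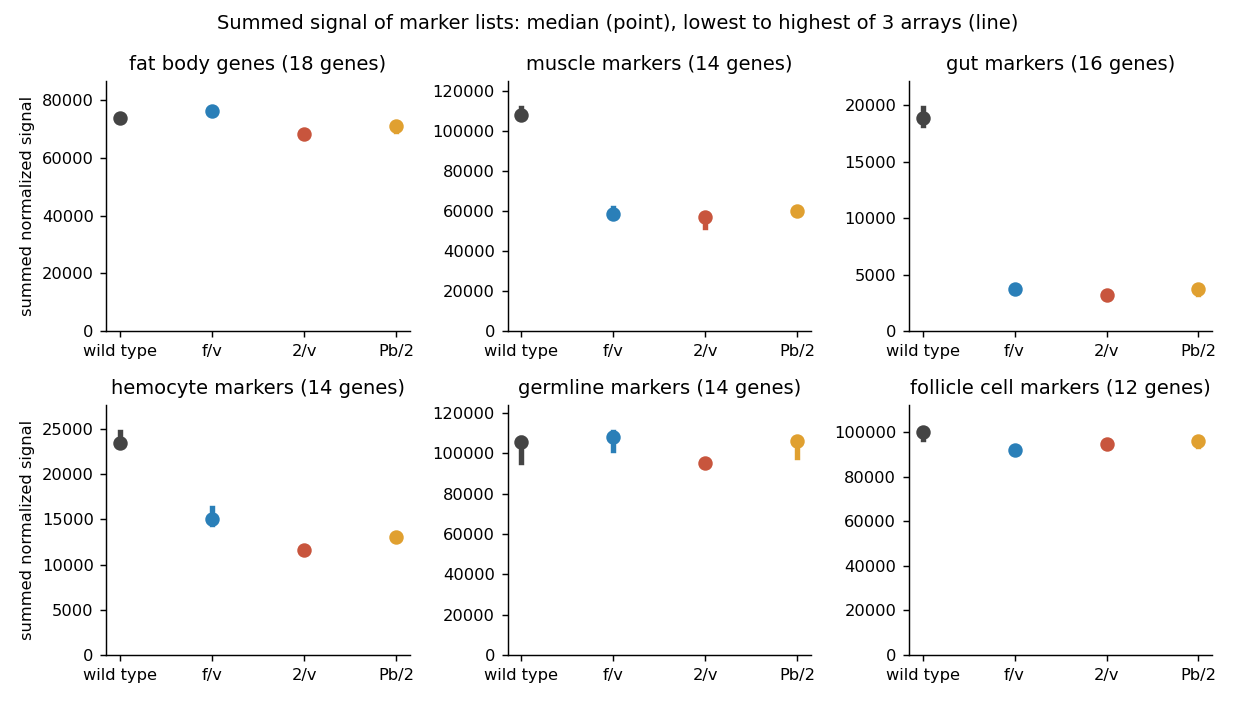
Summed normalized signal (vertical axis, from 0) of 6 marker lists in wild type, f/v, 2/v and Pb/2, with the median array as a point and the lowest to the highest of 3 arrays as a line. The gut, muscle and hemocyte sums are lower in all mutants, and the fat body, germline and follicle cell sums differ far less from wild type. Each sum rests mostly on the brightest genes of its list.

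The genes whose pattern over the 12 arrays was most like each of the 5 were taken by Pearson correlation of normalized log2 signal, a description over arrays that fall into genotypes. For Fbp1 these were Idgf1, a chitinase-like growth factor gene (r = 0.99), Gbp1 (r = 0.98) and the neuropeptide-like gene Nplp3 (r = 0.98). In 2/v against wild type Idgf1 changed by -0.96 and Gbp1 by -1.52, and Nplp3 fell to a level below background on 2 of 3 arrays. For fat-spondin they were the C-type lectin gene lectin-24Db (r = 0.99), the engulfment receptor gene NimC4 (r = 0.98), also on the hemocyte list, and CG34166 (r = 0.98), which in Pb/2 against wild type changed by -2.28, -2.99 and -1.57. Lsp2 and Fbp2 had CG6426 and CG3630 in common among their closest genes, beside CG7497 for Lsp2 and CG34330 for Fbp2, with r from 0.977 to 0.987. For fit they were the zinc finger gene Zn72D (r = 0.98), CG13148 (r = 0.97) and KrT95D (r = 0.97), whose rises in 2/v against wild type were 0.80, 1.21 and 1.06.

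The genes next to the 5 were taken from the gene order of the RefSeq assembly Release 6 plus ISO1 MT. Neighbours of fit are counted together with those of the falling genes, and whether neighbours share the changes was not tested. Of the 20 neighbouring protein-coding genes, the nearest 2 on each side, 13 were tested. In f/v against wild type 1 was lower and 3 were higher, in 2/v 1 and 2, and in Pb/2 4 and 2. Of all genes 35.3, 46.5 and 31.5% were called in these comparisons, with 16.9, 22.4 and 15.6% lower and 18.3, 24.2 and 15.9% higher. The gene tef, which overlaps fat-spondin in that assembly, read -0.13 ± 0.10 in f/v (adjusted p = 0.342) and fell in 2/v (-0.93 ± 0.10) and Pb/2 (-0.41 ± 0.10). Fbp2 overlaps CG42847 and fit overlaps CG31465, and how far a probe set of these genes reads its neighbour was not tested. CG31465 had mean normalized signals of 3 to 5 in the 4 groups, near 0.

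**Figure D5:**
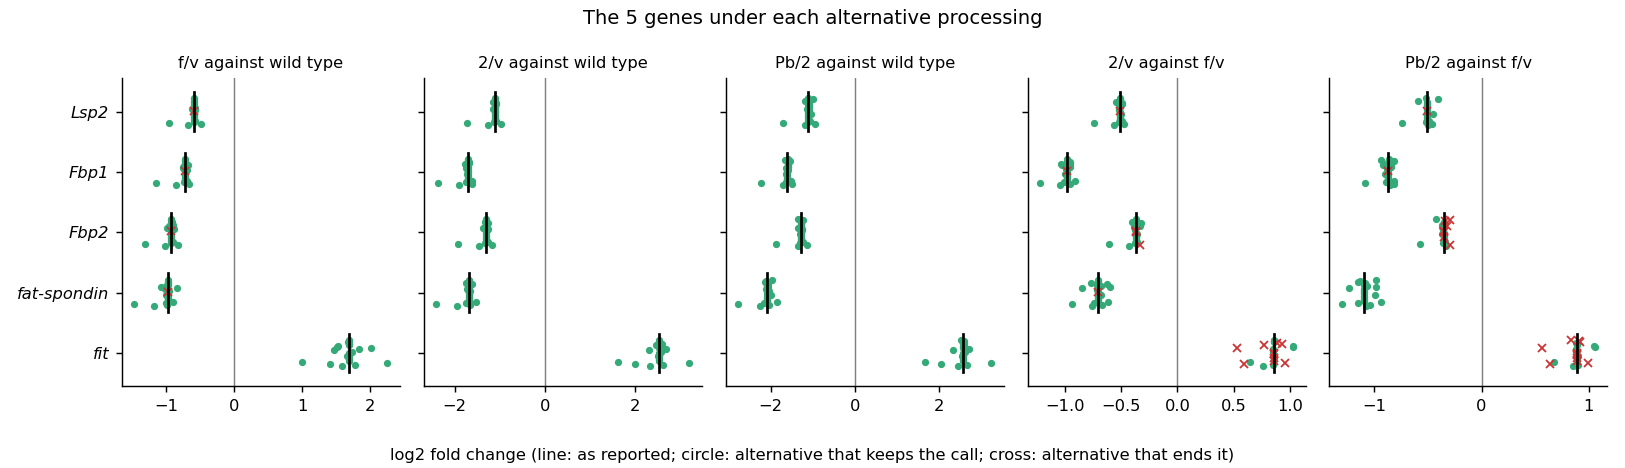
Log2 fold change (horizontal axis, its range set for each panel) of the 5 genes under each alternative processing, with the reported value as a black line, alternatives that keep the call as circles and those that end it as crosses. Against wild type no alternative other than the 2-fold limit ends a call, and against f/v the crosses gather on Fbp2 and fit.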

How the data were processed

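Ovary RNA of 12 pools (50 ng each, amplified by single primer isothermal amplification) was hybridized to Affymetrix arrays, per the labels. The values deposited by the authors are linear intensity, and GCOS is the tool named in the submitters' processing notes. Every array has a trimmed mean of 1500.02 or 1500.03 (2% removed at each end), and no source used here gives the version or settings. The source name and description mention embryos, and title, tissue and protocol the ovary, which was used.

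Of 18952 probe sets, 183 controls were left out. Signals of the rest were transformed as log2(signal + 16) and, because array medians differed by 0.393, normalized to equal quantiles. The filter kept probe sets exceeding the 40th percentile on 3 or more arrays. The 402 with several genes and 4720 with no symbol took part in these steps and were left out of the fit. The brightest remaining probe set stood for its gene (9109 genes). limma 3.58.1 (R 4.3.3) fitted a mean for each genotype (8 residual degrees of freedom), and the method was tested on simulated data. Plots used Python 3.11.15 and matplotlib 3.10.9. The number of arrays limits the precision. The 4 genes other than fit passed the filter on 12 of 12 arrays, and fit on 8, none of them wild type, so its difference from wild type was partly fixed by the filter. Bounds of fold changes take the higher of background and the dim signal.

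Shared replicate numbers were checked for pairing, and the 18 same-numbered pairs of arrays had residual correlations of -0.153 to 0.099, none above 0.1, so they were not paired. Named genes are the 5 genes, genes from the up to 4 most changed called members per list and comparison, and the 3 most correlated genes of each of the 5. The genes and lists were chosen with earlier results of these data known, and gene neighbours were added after their values could be seen. Symbols of 13544 probe sets were updated through RefSeq gene numbers.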

Additional observations from a re-analysis of the deposited data

How the results depend on the processing

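Against wild type, the 15 changes of the 5 genes kept their direction in 402 values over 27 alternatives, and the call in all but 4, which a 2-fold limit ended in f/v and left 1 gene called. At that limit 744 of all 9109 genes were called in f/v. Against f/v, 232 of 268 values kept the call and none changed sign, with Fbp2 and fit losing theirs apart from the 2-fold limit. In 2/v against f/v 3 genes were called at an adjusted p below 0.01, 0 with a 2-fold limit, and 4 to 5 when 1 array was left out. Over all 9109 genes these settings called 1399 and 535. With 1 array left out they were from 1861 (of 9044) to 2590 (of 9036). In Pb/2 against f/v 3 were called with only the groups compared, 3 at an adjusted p below 0.01, 1 with a 2-fold limit, and 3 to 5 when 1 array was left out. Over all 9109 genes the first 3 of these settings called 1422, 996 and 440. With 1 array left out, from 1325 (of 9033) to 1945 (of 9027) genes were called. In Pb/2 against 2/v 1 gene was called with the filter at the 60th percentile, and 0 to 1 when 1 array was left out. That filter called 2021 of all 6561 genes tested. With 1 array left out, from 993 (of 9027) to 1857 (of 9013) genes were called. In Pb/2 against 2/v the uncalled differences changed sign, Fbp2 with array weights (-0.007) and when 1 array was left out (-0.056 to 0.076), Lsp2 (-0.084 to 0.104) and fit (-0.035 to 0.126) when 1 array was left out. With the replicate number as a block fit in Pb/2 against f/v read 0.89 (adjusted p = 0.0533) and was not called, and no other call of the 5 genes changed. At the 60th percentile fit did not pass the filter. Wild type signal of fit lies below background, and its change against wild type moved with the pseudocount, from 0.99 to 2.25 in f/v and from 1.64 to 3.21 in 2/v. The cause of these changes was not tested.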
